A study of Homo sapiens with 12 samples.

Results

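The SLC25 family of carrier proteins was described in Caco-2 cells, a line from a human colon adenocarcinoma that forms an enterocyte-like monolayer, after exposure to the mould toxin ochratoxin A (OTA), to the bacterium Bacillus subtilis CW14, or to both. The members were all rows of the deposited table whose symbol is SLC25A followed by a number: 48 of 26125 rows. Of these, 37 had a mean of at least 1 FPKM (fragments scaled to the length of the transcript and to the mapped fragments of the library) over the 12 libraries and were tested, among 12928 tested genes, and 11 were not. Relatives that carry other symbols were kept apart and come last.

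After 21 days of culture on transwell inserts, the buffer on the apical side of the monolayer held no addition (control), CW14 alone, OTA alone at 15 µmol/L, or OTA at that dose together with CW14 (the combined group). Each group had 3 libraries, called by group and replicate number. How long the exposure lasted is not in the labels, and nothing in them says that replicates were separate cultures, so p-values measure only the spread between these libraries, which may be technical. All groups are of 1 tumour-derived line, and the CW14 and combined cultures held bacteria beside the human cells. The title of the series asks whether CW14 lessens barrier damage and toxicity caused by OTA.

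Carriers of this family sit, with a few exceptions, in the inner membrane of the mitochondrion, which few charged molecules cross without a carrier or channel. They move ADP, ATP, phosphate, citric acid cycle intermediates, amino acids, cofactors and iron between cytosol and matrix, often by exchanging a molecule on one side for another on the other. SLC25A17 is known from the peroxisome and SLC25A46 from the outer mitochondrial membrane. In enterocytes such carriers link respiration to the handling of glutamine, citrate and fatty acids.

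SLC25A25 had the largest difference of any member, and its promoter is shown with those of the other searched members that hold the same motif. The letters TGACGTCA, the palindromic cyclic-AMP response element, were searched on both strands in the 250 bases before each start site in the RefSeq promoter table (GRCh38.p14), a motif chosen with the results known. The member windows counted were 41, from 31 of the 37 tested members. The other tested members were left out of them, which does not mean that they lack a window in the table. The shares of member windows and of all windows may therefore not rest on like sets. The element lay in 3 of the 41 windows (7.32%) and in 578 of 35116 windows of the whole table (1.65%). The windows with it belong to SLC25A25 (chr9:128098257-128098506, plus strand), SLC25A36 (chr3:140941586-140941835, plus strand) and SLC25A33 (chr1:9539215-9539464, plus strand). Capitals mark the element, and each window is written 5′ to 3′.
SLC25A25: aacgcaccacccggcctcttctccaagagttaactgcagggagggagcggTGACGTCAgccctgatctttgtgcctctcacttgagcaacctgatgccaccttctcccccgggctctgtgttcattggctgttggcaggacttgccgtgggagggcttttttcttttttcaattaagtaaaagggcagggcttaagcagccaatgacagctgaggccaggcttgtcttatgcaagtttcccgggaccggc
SLC25A36: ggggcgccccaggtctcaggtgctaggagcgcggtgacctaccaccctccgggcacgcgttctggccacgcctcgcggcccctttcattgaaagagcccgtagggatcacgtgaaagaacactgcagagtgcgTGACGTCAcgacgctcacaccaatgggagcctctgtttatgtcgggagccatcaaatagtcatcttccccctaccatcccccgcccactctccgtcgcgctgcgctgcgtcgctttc
SLC25A33: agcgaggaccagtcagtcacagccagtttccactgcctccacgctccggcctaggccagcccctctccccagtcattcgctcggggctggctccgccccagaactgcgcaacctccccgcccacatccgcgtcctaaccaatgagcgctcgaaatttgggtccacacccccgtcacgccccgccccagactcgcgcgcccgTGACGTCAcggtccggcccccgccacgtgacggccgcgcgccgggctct
The first base of the element lay 200 bases before the start of SLC25A25, 117 before that of SLC25A36 and 49 before that of SLC25A33. SLC25A25 has 2 further windows, neither with the element, and the values per gene do not tell its transcripts apart. The GC box GGGCGG was found in 68.3% of the member windows and in 42.6% of all windows, and the letters CCAAT in 43.9% and 32%, both counted on either strand. These matches describe the letters and not a site in use. SLC25A25 and SLC25A36 were the 2 members called lower in combined against CW14, and SLC25A33 was called in no comparison. The motif was chosen with these calls known, so neither they nor the shares of windows test a link, and none was tested.

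A property of the series touches every result that uses the combined group. Combined replicate 3 stood apart from the other 11 libraries on the first principal component of the tested genes (35.3% of the variance), at 83.4 against a range of -36.6 to 31.97. It was the highest or lowest of the 12 libraries for 59.5% of the tested members and for 58.6% of all tested genes. The spread of the members about their group means was 0.508 (SD on the log2 scale) in that library and 0.105 to 0.332 in the others. Calls and counts that this library changed are therefore also given from the same fit without it. The monolayer had VIL1 (villin) at 19.2 to 34.6 FPKM and EPCAM at 403 to 707 FPKM. SI (sucrase-isomaltase), a defining marker of mature enterocytes, reached at most 0.148 FPKM. Epithelial markers did not move together between groups. VIL1 averaged 20.2 FPKM in control, 23.5 in CW14, 32.9 in OTA and 27.8 in the combined group. KRT20 averaged 11.9, 11.7, 6.25 and 3.90 FPKM in the same order. Of 10 markers of other cell types, 5 stayed under 1 FPKM in every library, and PTPRC and DCN were listed at 0 in all 12. The summed FPKM of the 10 was 75.5 to 97.8 in control, 66.1 to 85.6 in CW14, 105 to 133 in OTA and 54.3 to 80.3 in the combined group, most of it from CD68 (49.4 to 127 FPKM), and its part in the results below was not tested. In bulk RNA, fewer cells that express a gene and less of its RNA per cell cannot be told apart.

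Read per kilobase, most of the family's RNA came from the ADP/ATP carriers SLC25A6 and SLC25A5, which exchange cytosolic ADP for matrix ATP. Together they held 62.9% ± 0.623 of the family's summed FPKM in control, 62.6% ± 1.50 in CW14, 68.5% ± 0.557 in OTA and 57.7% ± 2.61 in the combined group (SD, n = 3 each). The sum over the 48 members was 2270 ± 35.7 FPKM in control, 2132 ± 119 in CW14, 2807 ± 8.90 in OTA and 2336 ± 524 in the combined group (SD, n = 3 each). The OTA libraries lay above all control and CW14 libraries. In the combined group, replicates 1 and 2 had 2147 and 1934 FPKM and replicate 3 had 2928. Without SLC25A5 and SLC25A6 the sums were 841 ± 6.48, 797 ± 15.5, 884 ± 17.8 and 998 ± 287 FPKM in the same order of groups.

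**Figure D1:**
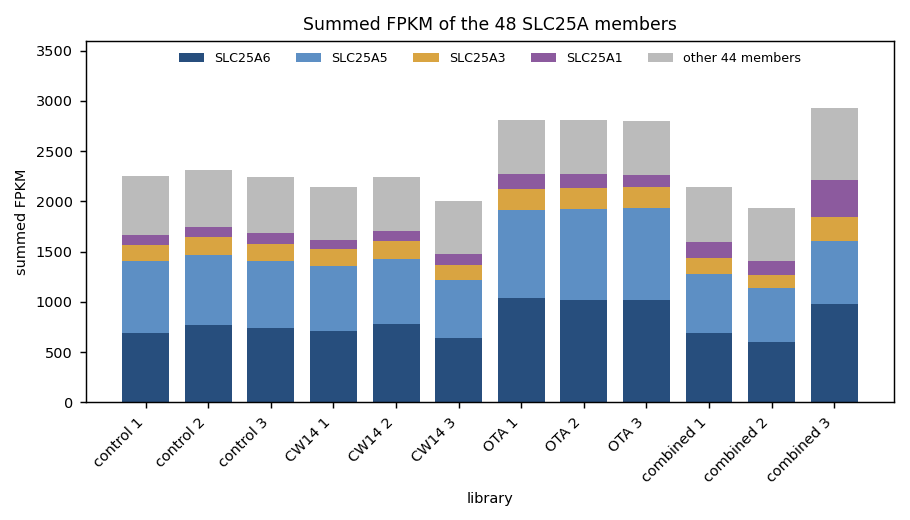
Summed FPKM of the 48 members in each of the 12 libraries (bars, linear axis from 0), split into SLC25A6, SLC25A5, SLC25A3, SLC25A1 and the other 44. The OTA bars reach 2798 to 2815 FPKM, and combined replicate 3 is the tallest at 2928.

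By mean FPKM the order was SLC25A6, SLC25A5, SLC25A3, SLC25A1, SLC25A36, SLC25A39, SLC25A23 and SLC25A13. SLC25A5 (534 to 912 FPKM) lay above SLC25A3 (134 to 242 FPKM) in every library, while other neighbours overlapped. SLC25A6 ranged from 685 to 771 FPKM in the control libraries and SLC25A5 from 676 to 719.7, which overlap. In the OTA libraries they did not overlap, with SLC25A6 at 1017 to 1039 FPKM and SLC25A5 at 871 to 912. SLC25A3 and SLC25A1 (91.1 to 374 FPKM) overlapped over the 12 libraries, as did SLC25A1 and SLC25A36 (29.6 to 108 FPKM). At the low end of the tested members, SLC25A12, an aspartate/glutamate carrier, averaged 1.05 FPKM over all libraries, and SLC25A21, the oxodicarboxylate carrier just under the filter, 0.825.

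Each comparison was fitted with limma on log2(FPKM + 1) across all tested genes, and called genes are those whose adjusted p was below 0.05. OTA against control called 3 members higher and 2 lower of 37, where 4.82% of all tested genes were called higher and 12.9% lower. Combined against CW14, the same toxin with bacteria on both sides, called 8 higher and 2 lower, beside 14.8% and 17.5% of all genes. Combined against OTA called 4 higher and 4 lower, beside 7.79% and 8.22%. CW14 against control called none (0.217% and 0.147% of all genes), and neither did the interaction, the difference between the toxin's effect with and without CW14 (1.85% and 1.49%). In all, 15 members were called in at least 1 comparison and 22 in none.

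The median log2 difference over the 37 tested members was 0.10 in OTA against control (0.03 over all tested genes), -0.09 in CW14 against control (-0.02), 0.06 in combined against OTA (0.03), 0.21 in combined against CW14 (0.02) and 0.20 in the interaction (0.04). Centring every library on its median gene moved the median of all genes in OTA against control from 0.03 to 0.13, and the split of calls there went from 3 higher and 2 lower to 6 and 2, or to 5 and 2 after quantile normalization. In combined against OTA the split went from 4 and 4 to 3 higher and 7 lower after centring, but to 4 and 3 after quantile normalization. Over all tested genes, centring moved the calls in OTA against control from 623 higher and 1665 lower to 1153 and 1342. In combined against OTA it moved them from 1007 and 1063 to 774 and 1335. Under centring the members' split thus moved the same way as that of the whole table. OTA against control and combined against OTA share the OTA libraries, and combined against OTA and combined against CW14 share the combined libraries, so calls in such pairs are not independent.

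Without combined replicate 3 the shared residual spread was smaller and more members were called. OTA against control then called 9 members higher and 6 lower, beside 14.7% and 19.2% of all genes. Combined against OTA called 3 and 8 (9.36% and 11.8%), combined against CW14 10 and 3 (15% and 18.9%), and the interaction 2 and 4 (6.02% and 6.25%). CW14 against control again called none.

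**Figure D2:**
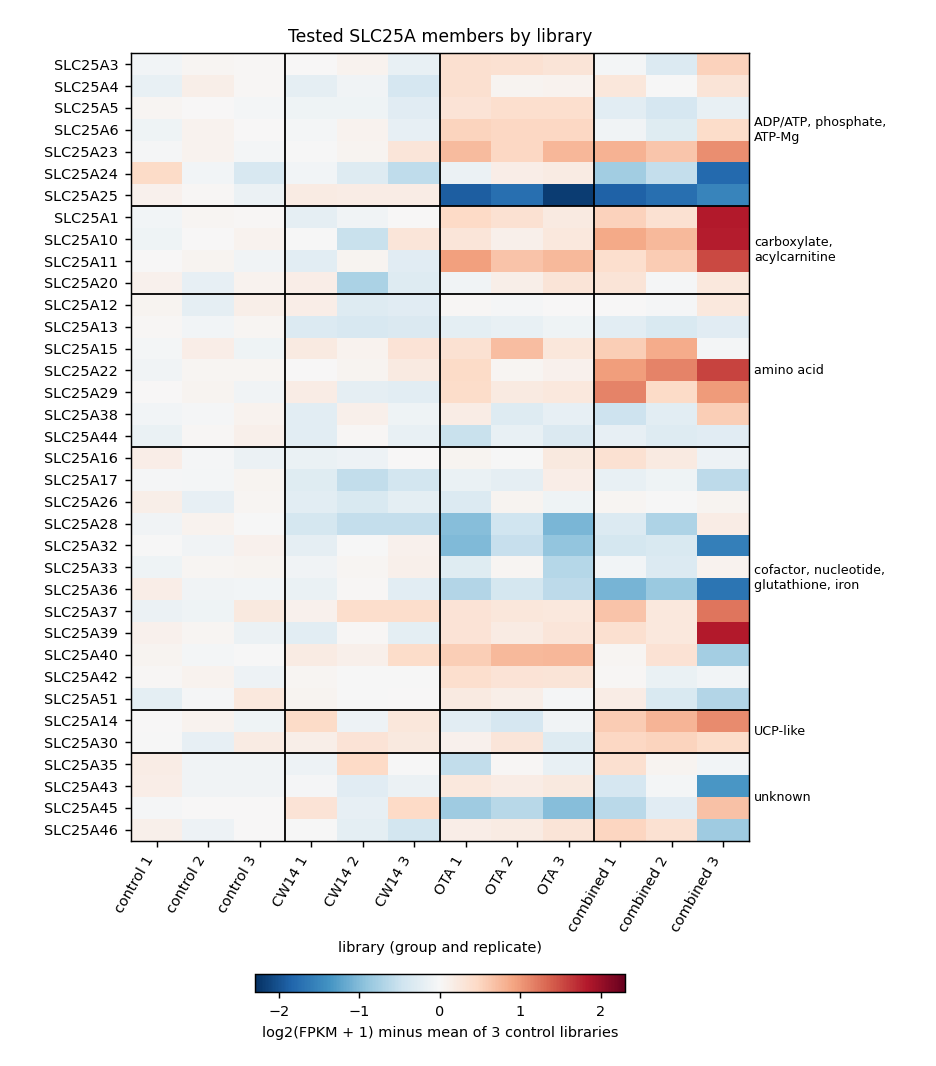
Colour shows log2(FPKM + 1) of each tested member minus its mean in the 3 control libraries, for tested members (rows, grouped by substrate) and 12 libraries (columns). SLC25A25 is dark blue in all OTA and combined libraries, and the last column, combined replicate 3, has the strongest colours for many other rows.

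Carriers of adenine nucleotides and phosphate had 7 tested members of 9, with 2 called higher and 1 lower in OTA against control, 1 and 1 in combined against CW14, and 0 and 2 in combined against OTA. With combined replicate 3 left out, these counts were 4 and 1, 1 and 1, and 0 and 4. Counts of this and the later lists stand beside the shares of all tested genes called higher and lower. These were 4.82% and 12.9% in OTA against control, 14.8% and 17.5% in combined against CW14, and 7.79% and 8.22% in combined against OTA. Without combined replicate 3 they were 14.7% and 19.2%, 15% and 18.9%, and 9.36% and 11.8%. No list was tested against these shares. The ATP-Mg/phosphate carriers SLC25A23, SLC25A24 and SLC25A25 are regulated by calcium and adjust the adenine nucleotide content of the matrix. They went in different directions.

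SLC25A25 (chr9:130830477-130871537, hg19, as deposited), whose promoter is printed above, fell in both comparisons of OTA with its matched group. Its FPKM was 35.5, 33.9 and 30.1 in the control libraries and 37.8, 37.3 and 37.2 in the CW14 libraries. With OTA it was 8.15, 9.23 and 6.48, and in the combined group 8.39, 9.19 and 11.0. The 6 libraries with OTA all lay under 12 FPKM and the 6 without it all lay above 30 FPKM. The mean with OTA was 0.240 of that in control, a log2 difference of -1.94 (SE 0.15, limma adjusted p = 4.64e-06). The mean in the combined group was 0.254 of that with CW14, a log2 difference of -1.88 (SE 0.15, limma adjusted p = 4.18e-06). Leaving out combined replicate 3 gave -1.97 for the second value (limma adjusted p = 1.44e-06). CW14 moved neither level past the test: the difference was 0.17 without OTA (95% interval -0.15 to 0.49) and 0.24 with it (-0.08 to 0.56), and the interaction was 0.06 (-0.39 to 0.52). SLC25A25 was the 1 member called lower in both toxin comparisons: it was 1 of the 2 called lower in each. These comparisons share no library but share 1 residual spread in the fit, so their calls are not independent. The share of all tested genes called lower in both was not counted.

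SLC25A23 (chr19:6440073-6459781, hg19), which carries the same substrates, rose in both toxin comparisons. It had 25.2, 26.9 and 24.5 FPKM in control, and 42.6, 35.9 and 44.2 with OTA. In CW14 it had 25.3, 26.8 and 31.2 FPKM, and in the combined group 45.2, 40.2 and 54.9. Every OTA-treated library was above every library without OTA. The log2 difference was 0.65 (SE 0.14, limma adjusted p = 0.00841) without bacteria and 0.73 (SE 0.14, limma adjusted p = 0.00320) with them, and 0.61 (limma adjusted p = 0.00301) for the latter without combined replicate 3.

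SLC25A24, the third of these carriers, was called lower in combined against OTA, at -1.11 (SE 0.29, limma adjusted p = 0.0269). Its FPKM was 23.8, 29.0 and 29.8 with OTA against 14.6, 17.5 and 6.85 in the combined group. The lowest of these values was that of combined replicate 3, and without that library the difference was -0.74 (limma adjusted p = 0.0320). Control libraries spread widely, at 35.6, 24.9 and 20.1 FPKM, and those with CW14 had 24.9, 21.0 and 17.1.

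The ADP/ATP carrier SLC25A5 (chrX:118599994-118605359, hg19), the form known from dividing cells, rose with OTA and was lower again in the combined group. It had 719.7, 698 and 676 FPKM in control, 871, 908 and 912 with OTA, 588, 534 and 618 in the combined group and 649, 653 and 583 with CW14. The OTA libraries were the 3 highest of the 12. OTA against control gave 0.36 (SE 0.11, limma adjusted p = 0.0420) and combined against OTA -0.63 (SE 0.11, limma adjusted p = 0.00593), 2 comparisons that share the OTA libraries. Quantile normalization, which gives all libraries 1 distribution, lowered these to 0.12 and -0.29 (limma adjusted p = 0.586 and 0.179). Of 23 alternative analyses, 13 lost the first call and 2 lost the second. The annotated antisense gene SLC25A5-AS1 overlaps this locus, and the library kit is not described as marking strand.

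SLC25A6 (chrX:1505043-1511039, hg19), another ADP/ATP carrier, had 685, 771 and 734 FPKM in control and 706, 776 and 638 with CW14. With OTA it had 1039, 1017 and 1021 FPKM, above all 9 other libraries. In the combined group it had 690.4, 603 and 983 FPKM, the highest again in replicate 3. It missed the threshold in OTA against control (0.49, SE 0.17, limma adjusted p = 0.0620) and in combined against OTA (-0.47, limma adjusted p = 0.0755). It passed in both without combined replicate 3, at 0.49 (limma adjusted p = 0.00181) and -0.67 (limma adjusted p = 0.00197). The ratio of SLC25A6 to SLC25A5 was 1.05 ± 0.0833 in control, 1.12 ± 0.0556 in CW14, 1.14 ± 0.0418 in OTA and 1.30 ± 0.254 in the combined group (SD, n = 3 each), with 1.59 in combined replicate 3. How fragments that match more than 1 gene were assigned is not given in the sources used here.

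SLC25A4, the form known from heart and muscle, was far lower than both, at 7.79, 9.81 and 9.05 FPKM in control and 11.7, 9.33 and 9.46 with OTA. It had 7.54, 8.29 and 6.55 FPKM with CW14 and 10.8, 8.73 and 11.1 in the combined group, and was called in no comparison. SLC25A31, the testis form, was listed at 0 except for 0.151 and 0.105 FPKM in OTA replicates 1 and 3. SLC25A6 and SLC25A5 thus led the 4 ADP/ATP carriers in every library, followed by SLC25A4 and then SLC25A31. The ratio of SLC25A6 to SLC25A5 was 0.952 in control replicate 1 and 1.09 to 1.59 in the other libraries.

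SLC25A3 (chr12:98987401-98995778, hg19), the phosphate carrier that feeds ATP synthesis, had 159, 172 and 169 FPKM in control, 168, 176 and 148 with CW14, 217, 213 and 206 with OTA and 162, 134 and 242 in the combined group. It was called in no comparison over the 12 libraries. In the fit without combined replicate 3 it was called in OTA against control (0.34, limma adjusted p = 0.0138), in combined against OTA (-0.52, limma adjusted p = 0.00615) and in the interaction (-0.49, limma adjusted p = 0.0400). The annotated SNORA53 lies within its locus.

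Carriers of carboxylates and acylcarnitines had 4 tested members of 5, with 1 called higher in OTA against control, 3 in combined against CW14 and 1 in combined against OTA, and none lower. The counts were 2, 3 and 1 without combined replicate 3. SLC25A11 exchanges oxoglutarate for malate, a step of the malate-aspartate shuttle. It had 6.69, 6.94 and 6.18 FPKM in control and 13.5, 11.0 and 11.8 with OTA, a log2 difference of 0.78 (SE 0.24, limma adjusted p = 0.0444). With CW14 it had 5.39, 6.91 and 5.34 FPKM and in the combined group 8.96, 10.4 and 20.7, a difference of 0.98 (SE 0.24, limma adjusted p = 0.0105). Groups did not overlap in either, and without combined replicate 3 the second was 0.64 (limma adjusted p = 0.00638). Of 23 alternative analyses, 12 lost the first call and 1 lost the second. SLC25A11 and SLC25A23 were called higher in both toxin comparisons: 2 of the 3 called higher without bacteria and 2 of the 8 called higher with them. The share of all tested genes called higher in both was not counted.

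SLC25A10, which exchanges malate and succinate for phosphate, had 15.2, 16.5 and 17.5 FPKM in control and 20.0, 17.9 and 19.6 with OTA. It had 16.3, 11.1 and 20.0 FPKM with CW14 and 30.6, 28.2 and 59.9 in the combined group, all 3 above the rest. Combined against CW14 gave 1.23 (SE 0.26, limma adjusted p = 0.00456) and combined against OTA 0.93 (SE 0.26, limma adjusted p = 0.0339), or 0.89 and 0.59 (limma adjusted p = 0.00353 and 0.0402) without combined replicate 3. The second of these moved by over 1.5 times.

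SLC25A1 (chr22:19163086-19166376, hg19), the citrate carrier that supplies carbon for fatty acid synthesis, had 99.9, 108 and 106 FPKM in control and 144, 133 and 121 with OTA. It had 91.1, 98.9 and 106 FPKM with CW14 and 151, 134 and 374 in the combined group. Combined against CW14 gave 0.99 (SE 0.29, limma adjusted p = 0.0224), and 0.53 (limma adjusted p = 0.00243) without replicate 3, the highest of the 12 libraries. OTA against control was called for this gene only in the fit without that library (0.34, limma adjusted p = 0.0141). SLC25A20, the carnitine/acylcarnitine carrier of fatty acid oxidation, ranged from 6.09 to 13.4 FPKM over the 12 libraries and was not called.

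**Figure D3:**
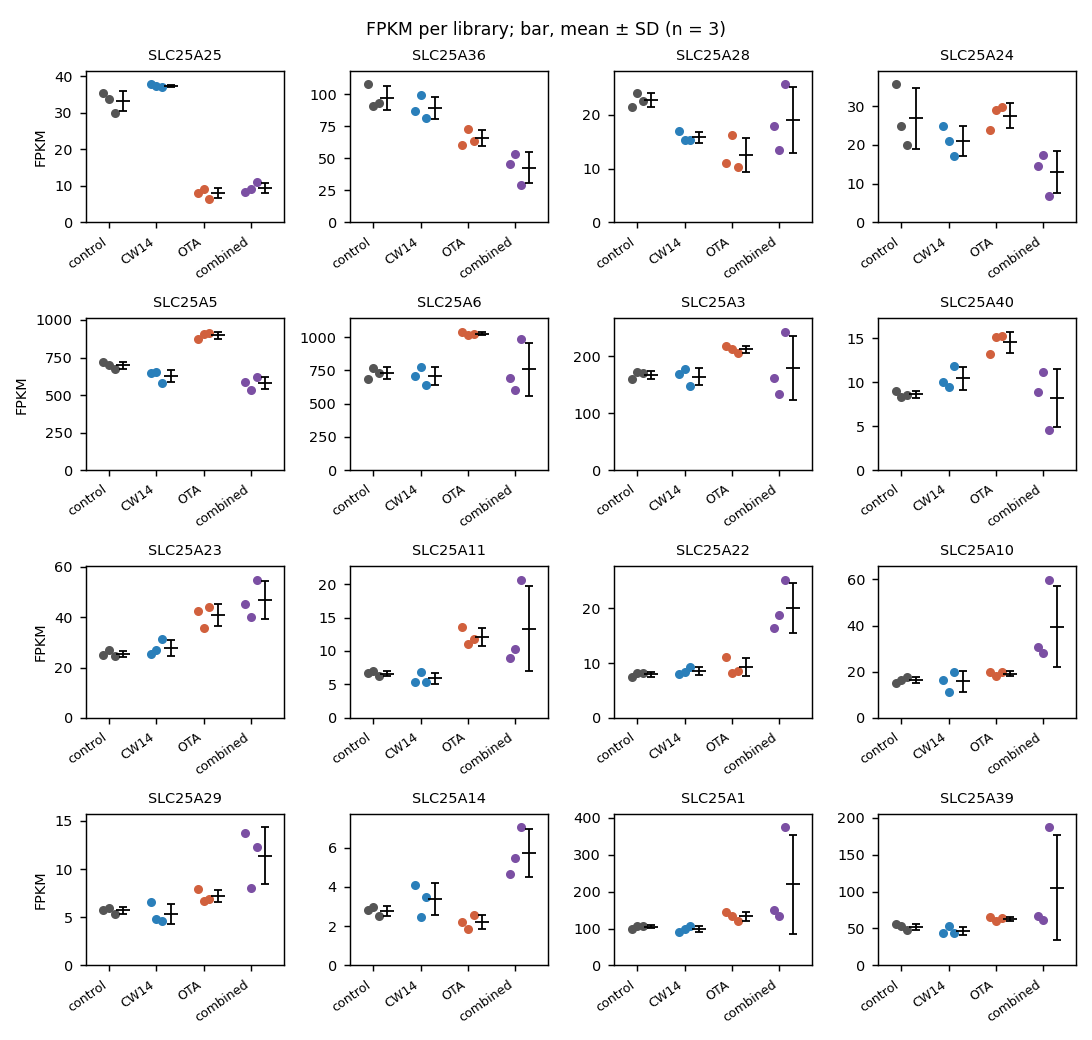
FPKM in each library (points) for 16 members, with the mean and SD of each group (n = 3, bars), linear axes from 0. OTA and combined points of SLC25A25 lie under 12 FPKM and the others above 30, and the highest combined point of SLC25A1, SLC25A10, SLC25A11 and SLC25A39 is that of replicate 3.

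Amino acid carriers had 7 tested members of 9, none called in OTA against control, 2 higher in combined against CW14 and 1 higher in combined against OTA. With the divergent library left out, the first count became 1 higher and 1 lower, the second 3 higher and the third stayed at 1. SLC25A22 (chr11:790473-805250, hg19), which brings glutamate into the matrix, stood out in the combined group. It had 16.4, 18.8 and 25.2 FPKM there, against 7.43, 8.22 and 8.24 in control, 8.04, 8.35 and 9.36 with CW14 and 11.2, 8.25 and 8.55 with OTA. All 3 combined libraries were above the 9 others. Combined against CW14 gave 1.12 (SE 0.17, limma adjusted p = 0.000625) and combined against OTA 1.02 (SE 0.17, limma adjusted p = 0.00496), and 0.96 and 0.86 (limma adjusted p = 0.000497 and 0.00281) without replicate 3. The deposited entries PANO1 and PIDD1 overlap its locus.

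SLC25A29, a carrier of arginine, lysine and other basic amino acids, had 5.78, 5.99 and 5.36 FPKM in control, 6.57, 4.78 and 4.66 with CW14, 7.95, 6.72 and 6.95 with OTA and 13.8, 8.06 and 12.3 in the combined group. It rose in combined against CW14 by 0.95 (SE 0.19, limma adjusted p = 0.00356), and by 0.88 (limma adjusted p = 0.00656) without replicate 3. Other tested amino acid carriers were called in no comparison over the 12 libraries. The aspartate/glutamate carriers SLC25A13, known as citrin, and SLC25A12 ranged from 23.1 to 31.0 and from 0.677 to 1.45 FPKM. The ornithine carrier SLC25A15 of the urea cycle ranged from 6.38 to 13.3 FPKM, the glycine carrier SLC25A38 of haem synthesis from 13.9 to 29.6, and SLC25A44, a carrier of branched-chain amino acids, from 15.1 to 23.8. In the fit without combined replicate 3, SLC25A15 was called higher (0.45, limma adjusted p = 0.0358) and SLC25A44 lower (-0.34, limma adjusted p = 0.0471) in OTA against control, and SLC25A15 higher in combined against CW14 (0.51, limma adjusted p = 0.0333).

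Carriers of cofactors, nucleotides, glutathione and iron had 13 tested members of 14, with 0 called higher and 1 lower in OTA against control, 1 and 1 in combined against CW14, and 1 and 2 in combined against OTA. Leaving out combined replicate 3 gave 2 and 3, 2 and 1, and 0 and 3. SLC25A36 (chr3:140660660-140698785, hg19), a pyrimidine nucleotide carrier whose promoter is printed above, fell in the combined group. It had 108, 91.0 and 92.9 FPKM in control, 87.3, 99.2 and 81.7 with CW14, 60.6, 73.0 and 63.8 with OTA and 45.4, 53.4 and 29.6 in the combined group. The 6 OTA-treated libraries all lay below the 6 others. Combined against CW14 gave -1.08 (SE 0.19, limma adjusted p = 0.00155) and combined against OTA -0.65 (SE 0.19, limma adjusted p = 0.0387). Without combined replicate 3 these were -0.84 (limma adjusted p = 0.000417) and -0.41 (limma adjusted p = 0.0368), the second smaller by over 1.5 times. OTA against control was -0.56 (limma adjusted p = 0.0624), and was called in the fit without that library (limma adjusted p = 0.00261). The related carrier SLC25A33, with the same motif, ranged from 10.1 to 17.8 FPKM and was not called.

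SLC25A28, of the mitoferrins that import iron for haem and iron-sulfur clusters, fell with OTA. It had 21.6, 24.1 and 22.6 FPKM in control and 11.1, 16.3 and 10.4 with OTA, groups that did not overlap, for a difference of -0.83 (SE 0.21, limma adjusted p = 0.0187). With CW14 it had 17.0, 15.3 and 15.3 FPKM, and in the combined group 18.0, 13.6 and 25.7, which overlap. Combined against CW14 gave 0.21 and was not called, and the direction turned to -0.02 without combined replicate 3. The other mitoferrin, SLC25A37, ranged from 14.3 to 38.5 FPKM and was called in no comparison.

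SLC25A39 and SLC25A40, related carriers that bring glutathione into the matrix, differed from each other. SLC25A39 had 55.5, 53.4 and 47.6 FPKM in control, 43.7, 53.3 and 44.3 with CW14, 65.4, 59.6 and 63.5 with OTA and 67.2, 61.6 and 187 in the combined group. It was called higher in combined against CW14 at 0.96 (SE 0.32, limma adjusted p = 0.0369), a value that fell to 0.45 (limma adjusted p = 0.00956) without combined replicate 3. SLC25A40 had 9.01, 8.30 and 8.51 FPKM in control, 10.0, 9.42 and 11.9 with CW14, 13.2, 15.2 and 15.2 with OTA and 8.91, 11.1 and 4.60 in the combined group. It was called lower in combined against OTA at -0.82 (SE 0.23, limma adjusted p = 0.0347), or -0.50 (limma adjusted p = 0.0259) without replicate 3. Its 3 OTA libraries were the highest of the 12, at 0.69 over control (limma adjusted p = 0.0603, and 0.00132 without combined replicate 3). The neighbouring gene DBF4 overlaps its deposited locus.

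The members of this list that follow were called in no comparison over the 12 libraries. SLC25A16 and SLC25A42, both linked to coenzyme A, ranged from 14.8 to 21.3 and from 6.19 to 9.45 FPKM. In the fit without combined replicate 3, SLC25A16 was called higher in combined against CW14 (0.37, limma adjusted p = 0.0363). That fit also called SLC25A42 higher in OTA against control (0.33, limma adjusted p = 0.0359) and lower in combined against OTA (-0.40, limma adjusted p = 0.0390). SLC25A51, the NAD carrier, ranged from 10.4 to 20.4 FPKM, the peroxisomal SLC25A17 from 6.88 to 12.3, and SLC25A26, which imports S-adenosylmethionine, from 7.11 to 10.3. The folate and FAD carrier SLC25A32 had 12.5 to 14.3 FPKM in control and 6.09 to 8.97 with OTA, a difference of -0.81 that missed the threshold (limma adjusted p = 0.0614) and passed it without combined replicate 3 (limma adjusted p = 0.000975).

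Of the relatives of uncoupling proteins, 2 of 3 were tested. SLC25A14 had 2.81, 3.00 and 2.51 FPKM in control, 4.12, 2.49 and 3.50 with CW14, 2.19, 1.87 and 2.58 with OTA and 4.64, 5.48 and 7.03 in the combined group. All 3 combined libraries were above the 9 others. Combined against OTA gave 1.06 (SE 0.19, limma adjusted p = 0.00689) and combined against CW14 0.62 (SE 0.19, limma adjusted p = 0.0284). Without combined replicate 3 the first was 0.92 (limma adjusted p = 0.00782) and the second, at 0.49, was no longer called (limma adjusted p = 0.0709). SLC25A30 ranged from 1.85 to 4.04 FPKM and was not called.

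Members whose substrate is unknown or debated, with 4 of 8 tested, gave no call in any comparison over the 12 libraries. With combined replicate 3 left out, 1 was called lower in OTA against control, 1 lower in combined against OTA, and 1 higher and 1 lower in combined against CW14. SLC25A43 ranged from 9.32 to 30.1 FPKM, SLC25A46 from 6.93 to 18.7, SLC25A45 from 3.43 to 13.02 and SLC25A35 from 0.509 to 2.06. SLC25A45 had 7.65, 7.81 and 7.88 FPKM in control and 3.98, 4.64 and 3.43 with OTA, a difference of -0.81 (limma adjusted p = 0.0668, and 0.00409 without combined replicate 3). The lowest SLC25A43 and SLC25A46 values and the highest SLC25A45 value were those of combined replicate 3. In the fit without it, SLC25A43 was lower in combined against OTA (-0.42, limma adjusted p = 0.0360). In combined against CW14 that fit called SLC25A46, which acts in mitochondrial division, higher (0.64, limma adjusted p = 0.00426) and SLC25A45 lower (-0.63, limma adjusted p = 0.0271).

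**Figure D4:**
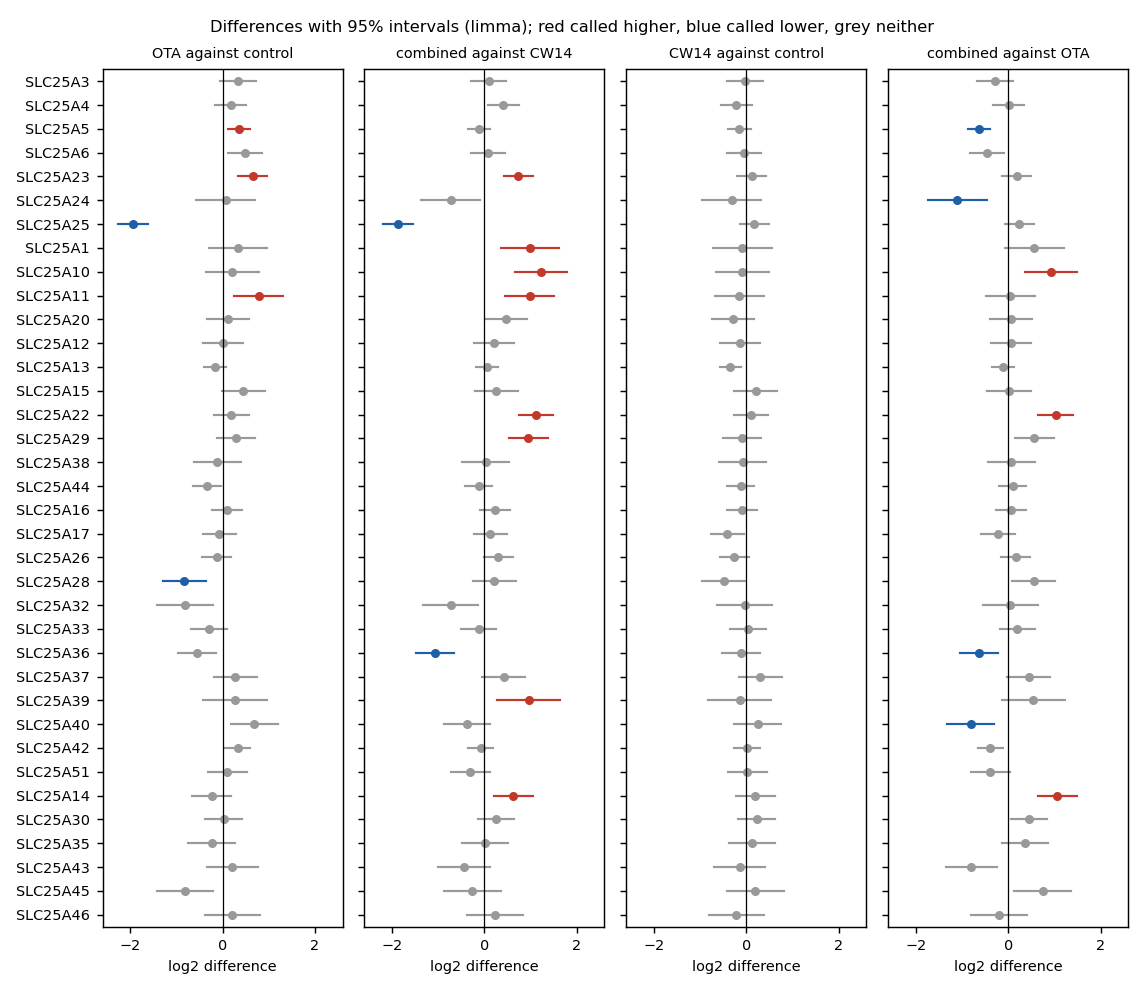
Log2 differences of tested members (points) with 95% intervals (lines) from limma in 4 comparisons; red marks called higher, blue called lower and grey neither. SLC25A25 lies near -1.9 in both toxin comparisons, and no point is coloured in CW14 against control.

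CW14 without toxin gave no member call, and 3 members had an unadjusted limma p under 0.05, all lower. SLC25A13 had 30.8, 28.9 and 31.0 FPKM in control and 24.0, 23.1 and 23.7 with CW14, a difference of -0.35 (95% interval -0.58 to -0.11, limma adjusted p = 0.445). SLC25A17 differed by -0.42 (-0.78 to -0.06, limma adjusted p = 0.665) and SLC25A28 by -0.49 (-0.96 to -0.03, limma adjusted p = 0.719). Their groups did not overlap. Neither did those of SLC25A25 and SLC25A40, higher with CW14, and of SLC25A5 and SLC25A26, lower with CW14. How many of all tested genes had no overlap, or an unadjusted limma p under 0.05, was not counted. The differences of the 37 members ran from -0.49 to 0.30, so shifts of these sizes were not called at this number of libraries, which does not show that the groups were alike.

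The interaction asks whether CW14 changed the response to OTA. No member was called, and 9 had an unadjusted limma p under 0.05, a count given without the share of all tested genes. The smallest adjusted p was that of SLC25A22, at 0.93 (SE 0.24, limma adjusted p = 0.0540). Without combined replicate 3 the glutamate carrier was called (0.76, limma adjusted p = 0.0284), as was SLC25A28 (0.81, limma adjusted p = 0.0450). Called lower in that fit were SLC25A5 (-0.52, limma adjusted p = 0.0184), SLC25A6 (-0.62, limma adjusted p = 0.0187), SLC25A3 (-0.49, limma adjusted p = 0.0400) and SLC25A40 (-0.74, limma adjusted p = 0.0264). In combined replicates 1, 2 and 3, SLC25A5 (588, 534 and 618 FPKM) lay below every control library (676 to 719.7 FPKM).

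Base composition moved with the values of several libraries. The median GC content of the protein-coding transcripts of each member (GENCODE 29, all 37 matched) ranged from 34.2% to 65.9%. Across the 37 members, the deviation from the mean of 12 libraries had a Spearman rho with GC of 0.675 in combined replicate 3, 0.261 in replicate 1 and 0.0356 in replicate 2. It was -0.501 to -0.292 in the control libraries, -0.438 to -0.255 in those with CW14 and -0.252 to 0.0472 in those with OTA. Over all tested genes with a match (88.4%) it was 0.498 in combined replicate 3. These points share their library, and the values are given without a test. Members called higher in combined against CW14 had a median GC of 63.2% against 49.4% for those not called, and those called higher and lower in combined against OTA had 60.2% and 42.3%. In OTA against control the 3 called higher and 2 called lower had 56.8% and 56.2%. The part of base composition in the calls was not tested. SLC25A25, at 56.5% GC, was low in all 6 libraries with OTA.

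**Figure D5:**
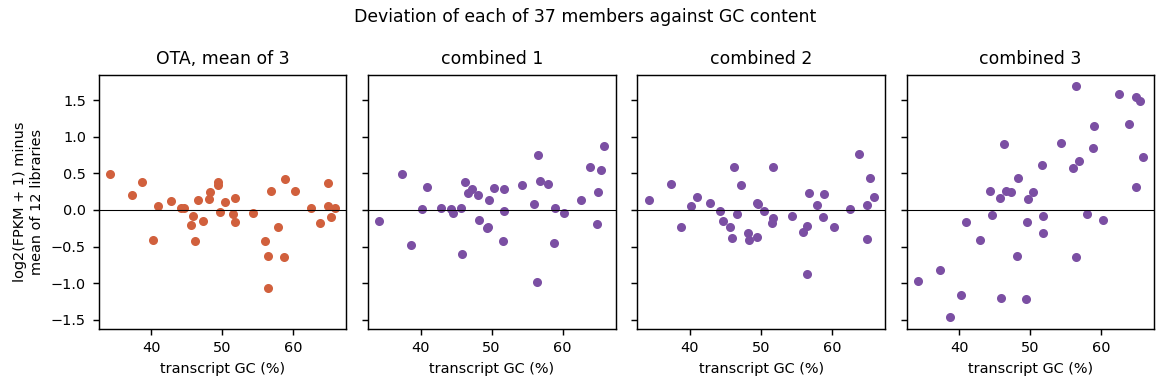
Deviation of log2(FPKM + 1) from the mean of 12 libraries (vertical axis) against transcript GC content in percent (horizontal axis) for the 37 tested members, in the mean of the OTA libraries and in each combined library. The cloud rises with GC in combined replicate 3 (Spearman rho 0.675) and is close to flat in replicate 2 (0.0356).

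Of the 11 members under the filter, the highest value in any library was 1.49 FPKM for SLC25A18 (a glutamate carrier), 1.27 for SLC25A34, 1.19 for SLC25A21, 0.711 for SLC25A2 (an ornithine carrier), 0.598 for SLC25A52, 0.577 for SLC25A27 and 0.324 for SLC25A41. SLC25A47 reached 0.285 FPKM, SLC25A31 0.151 and SLC25A53 0.143. SLC25A48 was listed at 0 in all 12 libraries.

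Relatives of the family under other symbols were read from 5 rows, 3 of them tested. MTCH2, an outer-membrane member of the family that inserts proteins into that membrane, rose with OTA from 31.95 ± 0.518 to 51.3 ± 8.02 FPKM (SD, n = 3), a log2 difference of 0.66 (limma adjusted p = 0.00939). It was also called in combined against CW14 at 0.46 (limma adjusted p = 0.0325), as was the uncoupling protein UCP2 at 0.97 (limma adjusted p = 0.0103), which had 34.0 ± 0.861 and 73.0 ± 36.2 FPKM (SD, n = 3). Both were called there without combined replicate 3 too. In OTA against control that fit called all 3 tested relatives higher, MTCH1, MTCH2 and UCP2, beside 14.7% of all genes.

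Other carriers and channels of the inner membrane had 12 tested genes of 14. OTA against control called 3 higher and none lower (4.82% and 12.9% of all genes), and 5 higher without combined replicate 3 (14.7%). These included both subunits of the pyruvate carrier: MPC1 went from 42.8 ± 6.21 to 62.8 ± 4.50 FPKM (0.55, limma adjusted p = 0.0334) and MPC2 from 87.1 ± 5.82 to 126 ± 4.42 (0.53, limma adjusted p = 0.00750; SD, n = 3). Combined against CW14 called 7 higher and 1 lower (14.8% and 17.5% of all genes), or 5 and 1 without replicate 3 (15% and 18.9%). The lower gene was MCU, the pore of the calcium uniporter, with 52.4 ± 1.64 FPKM in CW14 and 38.6 ± 4.64 in the combined group (SD, n = 3). Combined against OTA called 1 higher and 2 lower in both fits (7.79% and 8.22% of all genes over the 12 libraries). LETM1, an inner-membrane protein of cation exchange, was called in the interaction (1.06, limma adjusted p = 0.0260).

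Carriers reach the inner membrane through the TOM complex, the small TIM chaperones and TIM22. All 16 genes of this route were tested. OTA against control called 1 higher and 1 lower (4.82% and 12.9% of all genes). Combined against OTA called 3 and 2 (7.79% and 8.22%), and combined against CW14 8 and 2 (14.8% and 17.5%). Leaving out combined replicate 3 gave 3 and 1, 2 and 3, and 7 and 3. The interaction went from 0 higher and 1 lower to 2 and 2, beside 6.02% and 6.25% of all genes in that fit. TIMM22 and TOMM40 were the higher genes there, and TOMM20 and TOMM7 the lower. TOMM20, a receptor of the TOM complex, had 435 ± 14.7 FPKM in control, 456 ± 41.6 in CW14, 644 ± 41.5 in OTA and 312 ± 76.2 in the combined group (SD, n = 3 each). It rose with OTA (0.56, limma adjusted p = 0.0389), was lower in combined against OTA (-1.07, limma adjusted p = 0.00403) and was called in the interaction (-1.14, limma adjusted p = 0.0320). TIMM22, the insertase that places carriers in the inner membrane, was called higher in combined against OTA at 0.64 (limma adjusted p = 0.0112). Of the 3 outer-membrane VDAC channels, VDAC1 rose with OTA from 411 ± 5.60 to 551 ± 7.03 FPKM (SD, n = 3; 0.42, limma adjusted p = 0.0314), and none was called in the other 4 comparisons over the 12 libraries. In the fit without combined replicate 3, VDAC1 and VDAC2 were called lower in combined against OTA, and VDAC2 lower in combined against CW14 and in the interaction. The calls given here for MPC1, MPC2, MCU, LETM1, TOMM20, TIMM22 and VDAC1 over the 12 libraries were also made in that fit.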

How the data were processed

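RNA of 12 Caco-2 libraries in 4 groups of 3 was sequenced as pairs of 150-base reads, per the labels' protocols. The authors deposited FPKM for each gene in each library: fragments scaled to transcript length and to mapped fragments. The submitters' processing notes name Cufflinks 2.2.1, TopHat2 2.0.13, cutadapt 1.10, Cuffdiff and Cuffnorm as tools and hg19 as the build. Which annotation and which scaling across libraries were applied is not given in the sources used here, and absolute depth is unknown from FPKM. Loci are printed as deposited, and whether starts count from 0 or 1 is not stated.

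Values were analysed as log2(FPKM + 1), a scale that understates the change of low genes, for genes whose mean over the 12 libraries was 1 FPKM or more. Group means were modelled over all libraries with limma 3.58.1 in R 4.3.3 (eBayes with trend, 8 residual degrees of freedom), with two-sided tests and Benjamini-Hochberg adjustment over all tested genes in each of 5 comparisons. The procedure was tested on simulated data in which each gene had equal spread in all 12 libraries. That test does not cover the wider spread of combined replicate 3. Groups and replicate numbers came from the sample titles. Alternatives changed the pseudocount, filter, scaling, spread, weights and block, and left out each library. The named genes are members called in at least 1 comparison, the ADP/ATP and phosphate carriers and the most abundant members, with the other members by range. Members and lists were chosen with earlier results of these data known. No protein sequences were used here. Of the tested members, 1 is counted but its values are not reported here.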

Additional observations from a re-analysis of the deposited data

How the results depend on the processing

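All 23 calls of a member in a comparison kept their direction in every alternative. The 6 that also stayed called in all of them were SLC25A23 and SLC25A25 in OTA against control, and SLC25A22, SLC25A23, SLC25A25 and SLC25A36 in combined against CW14. The other 17 were lost in at least 1 alternative, and for those the cause was not tested. Among the named members, the calls lost most often were those of SLC25A5 (13 of 23) and SLC25A11 (12 of 23) in OTA against control. That of SLC25A36 in combined against OTA was also lost in 12 of 23. The number of members called in OTA against control was 5, and became 3 with no filter, 8 after median-centring, 14 with only the compared groups in the fit, 19 with library weights and 3 with the replicate number as a block, and 2 to 15 when each library was left out (15 without combined replicate 3, 9 without combined replicate 2, 2 without control replicate 2 or 3 or OTA replicate 1 or 3, 3 without control replicate 1, CW14 replicate 1 or 2 or OTA replicate 2). Combined against OTA had 8, which became 3 with no filter, 0 with only the compared groups (11 at an unadjusted p under 0.05), 22 with library weights and 3 to 13 when each library was left out (3 without any one OTA library, 4 without control replicate 2, 5 without control replicate 3 or CW14 replicate 1, 13 without combined replicate 2). Combined against CW14 had 10, which became 4 with only the compared groups, 23 with library weights and 7 to 17 when each library was left out (17 without combined replicate 2). The interaction had 0, which became 1 with a mean of at least 5 FPKM, 1 after quantile normalization, 18 with library weights and 0 to 6 when each library was left out (5 without combined replicate 2, 6 without combined replicate 3). CW14 against control had 0, which became 1 with library weights and stayed at 0 when each library was left out. The share of all tested genes called also changes between alternatives. In OTA against control it went from 4.82% higher and 12.9% lower to 14.7% and 19.2% without combined replicate 3. For most other alternatives, here and in the next paragraph, that share was not counted. Their counts therefore do not set the members apart from all tested genes.

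The weights, fitted by restricted maximum likelihood, did not converge and gave combined replicate 1 a weight of 32.2 and combined replicate 3 one of 0.0421. Gene-by-gene weights, chosen after seeing the data, gave 16 members in OTA against control, 16 in combined against OTA and 8 in the interaction. With the replicate number as a block, combined against OTA had 7 members called, combined against CW14 10, and CW14 against control and the interaction 0. The numbers did not pair the libraries: deviations of 18 same-numbered pairs correlated at -0.15 to 0.154, and no library correlated best with its own number in every other group.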
